A study of Homo sapiens with 7 samples.

Results

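The 9 genes described here encode SF3A1, SF3A2 and SF3A3, the subunits of the splicing complex SF3A, and SF3B1 to SF3B6, subunits of its partner SF3B. They were taken as named members of these complexes, 9 of 19974 protein-coding genes on chromosomes 1 to 22 and X. For each gene, every called peak whose summit lay in the gene's span or within 50 kb of it was collected, which gave 117 of 152915 peaks. Peaks sharing at least 1 bp, whichever library they came from, were merged, which placed them in 65 of 92292 regions. The genes were chosen by the calls, positions and folds of these same peaks near them, so the counts and folds below are descriptions and carry no test.

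The peaks come from chromatin immunoprecipitation with an antibody to PPARα, the fatty-acid-sensing nuclear receptor of liver, in HepG2, a cell line derived from a human hepatocellular carcinoma. All groups carried a transfected PPARα expression vector and received the PPARα agonist WY14643 (also written Wy13643 by the submitters) at 10 µM for 2 h, with agonist treatment from 48 h after transfection. The PPARα group received nothing more. The PPARα+ERα group also carried an expression vector for estrogen receptor alpha and was given 10 nM PPT, its selective agonist, for 45 min before WY14643, and the PPARα+ERβ group carried a vector for estrogen receptor beta and was given 10 nM DPN for 45 min. Receptor and agonist were always changed together, so their contributions cannot be told apart, and the receptors were expressed from vectors in 1 cell line. Each of the 3 groups had 2 libraries, which nothing in the labels describes as separate cultures, so the spread between them may be technical. Library numbers 1 and 2 follow the order of deposit. A sample without antibody was not analysed here.

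SF3A and SF3B are parts of the U2 small nuclear ribonucleoprotein, which recognises the branch site of an intron when the spliceosome forms. SF3B1 closes around the branch-site duplex and is the subunit bound by several splicing-modulating compounds, SF3B3 is the scaffold of beta-propeller domains beside it, and the SF3A proteins join SF3B to the rest of the particle. Because they serve constitutive splicing, these genes are active in nearly every cell type, liver cells included.

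The peak lists differed in length and in the kind of site called. They held 17457 to 36302 peaks each. Sequencing totals were not analysed here. The spacing of fragments that each list's background implies was 449.8 to 537 bp in the PPARα and PPARα+ERβ libraries and 725 and 779.7 bp in the PPARα+ERα libraries, which were the shallowest. A called peak rose from a median local background of 13.5 and 15.7 times the genome-wide level with PPARα, 9.34 and 8.52 times with PPARα+ERβ, and 1.64 and 1.57 times with PPARα+ERα. These differences run with the groups in everything below, and their part in the results was not tested. A region counts as occupied in a group if it carried a peak in each of the 2 libraries. Fold values are the authors', giving signal at the summit relative to its surroundings, and they rank peaks within 1 list only.

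Of the upstream stretches of 8 members and of COG4, only that of COG4 overlapped a peak, and it is shown first. It lies between COG4, a Golgi tethering subunit gene, and SF3B3, and belongs to the COG4 start, 262 bp from the lower end of the SF3B3 span. The sequence is 250 bases upstream of the COG4 start (RefSeq, GRCh38.p14, chr16:70523555-70523804, minus strand, 5′ to 3′), with the 88 bases inside the called peak region in capitals. The other 3 are the same stretch of member genes, shown because they hold or lack a motif that most members shared. Capitals in these mark CCGGAAG or its reverse complement, the core bound by ETS factors, and no peak of any library reached them. They are SF3B1 (chr2:197435094-197435343, minus strand), SF3B2 (chr11:66052114-66052363, plus strand) and SF3B6 (chr2:24076327-24076576, minus strand).
COG4: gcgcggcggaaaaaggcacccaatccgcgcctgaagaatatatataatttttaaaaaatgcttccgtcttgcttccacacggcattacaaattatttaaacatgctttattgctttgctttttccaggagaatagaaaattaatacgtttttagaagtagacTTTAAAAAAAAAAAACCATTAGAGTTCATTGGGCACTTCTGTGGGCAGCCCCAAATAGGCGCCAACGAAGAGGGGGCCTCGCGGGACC
SF3B1: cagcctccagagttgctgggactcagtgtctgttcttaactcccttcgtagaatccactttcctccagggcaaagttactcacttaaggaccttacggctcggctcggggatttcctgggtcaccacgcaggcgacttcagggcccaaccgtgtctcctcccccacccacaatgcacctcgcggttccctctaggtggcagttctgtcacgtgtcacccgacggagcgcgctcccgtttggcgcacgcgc
SF3B2: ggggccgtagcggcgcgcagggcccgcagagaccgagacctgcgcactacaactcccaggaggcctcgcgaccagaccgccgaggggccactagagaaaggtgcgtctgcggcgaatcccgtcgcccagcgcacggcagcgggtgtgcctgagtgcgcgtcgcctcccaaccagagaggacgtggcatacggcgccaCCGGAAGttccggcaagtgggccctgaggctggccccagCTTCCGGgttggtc
SF3B6: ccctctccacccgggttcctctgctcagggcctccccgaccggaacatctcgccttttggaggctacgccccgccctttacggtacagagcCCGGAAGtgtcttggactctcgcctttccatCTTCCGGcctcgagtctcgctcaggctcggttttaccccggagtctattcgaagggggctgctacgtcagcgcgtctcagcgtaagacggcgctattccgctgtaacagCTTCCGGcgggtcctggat

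The SF3B3 and COG4 pair held the strongest peak near any of these genes. It was called in both PPARα+ERα libraries and in none of the other 4, at chromosome 16, 70523160 to 70523642. Fold was 32.9 in library 1 and 33.5 in library 2, with 63 and 66 fragments stacked at the summit and −log10 q of 84.5 and 88.4. By q it ranked 4 among 24505 and 4 among 27544 peaks of its lists. The local background under it was 2.43 and 2.39 times the genome-wide level. The summits lay 117 bp apart, at 70523577 in library 1, just upstream of the COG4 start at 70523554, and at 70523460 in library 2, within COG4. The region ended below the SF3B3 span, which begins at 70523816, so the peak sat at the COG4 start and next to SF3B3 rather than within it. The gene source gives no strand for SF3B3, so this end may be the SF3B3 start as well. The peak is therefore not assigned to COG4 over SF3B3.

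SF3B3 itself spans 70523816 to 70577668 on chromosome 16, and its window held 21 peaks in 10 regions. Inside the gene, 12197 bp from that end, a further region (70535421 to 70536182) had peaks in both PPARα+ERα libraries only, with fold 13.04 and 5.30 and 20 and 10 fragments. The libraries stood apart here, since the peak ranked 208 by q in library 1 and 15925 in library 2. A peak near the far end of the gene, 2578 bp inside it, was called in PPARα+ERα library 2 alone (fold 5.73). All other regions of the window lay in COG4 or in IL34, a cytokine gene.

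Within COG4, peaks of the groups alternated over a few kilobases. The PPARα+ERα libraries shared a region at 70517597 to 70517949 (fold 6.79 and 9.15). The next region, 70518978 to 70519669, had no PPARα+ERα peak but one in each of the other 4 libraries, with fold 3.48 and 14.0 with PPARα and 6.34 and 7.54 with PPARα+ERβ. Of those 4 libraries, 3 placed the summit at 70519194 and PPARα library 1, the weakest, placed it at 70519058. A pair of regions further into COG4, at 70492662 and 70510369, were occupied with PPARα and had no PPARα+ERα peak. The first had fold 3.60 and 7.53. The second had fold 6.75 and 7.40, and 7.16 in PPARα+ERβ library 2, all with the same summit at 70510622.

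SF3B1 held the other high-ranking peak, again with PPARα+ERα alone. SF3B1 spans 197389784 to 197435093 on chromosome 2 and is read from the upper end, so the region at 197432867 to 197433307 lay inside the gene, 2059 bp downstream of its start. Fold was 15.1 in library 1 and 16.9 in library 2, with 20 and 23 fragments and −log10 q of 23.3 and 27.7, and both summits fell on the same base, 197433034. It ranked 100 and 73 in its lists. The local background was at the estimated genome-wide level, 1.00 times in both libraries, which is about the lowest value the lists give. No exon positions were used, so the peak is not assigned to an exon or intron. The upstream stretch of SF3B1 printed above lay 1787 bp from the nearest peak.

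SF3B1 had the most regions of any member, 13 with 22 peaks. Deeper in the gene, 25569 bp from the start, both PPARα+ERα libraries had a weaker peak (197409401 to 197409727; fold 6.48 and 4.93). Another region shared by those libraries (fold 5.66 and 4.75, summits on the same base) lay 49627 bp upstream of SF3B1, beside HSPD1, the mitochondrial chaperonin Hsp60 gene. In COQ10B, 38628 bp upstream of SF3B1, lay the only region of this window occupied with PPARα+ERβ (197473696 to 197474144). Fold there was 3.21 and 3.38 with PPARα+ERβ, and PPARα occupied it too (4.0033 and 3.79). A further COQ10B region, 36979 bp upstream, was occupied with PPARα (fold 3.10 and 5.57) and called in PPARα+ERβ library 1 (3.09). Past the other end of SF3B1, by 2372 bp, both PPARα libraries had a peak that no other library had (197387091 to 197387525). Fold there was 3.26 and 5.85 with 54 and 110 fragments, and the local background was high, 27.0 and 26.6 times the genome-wide level. The PPARα+ERα peak near the start rested on fewer fragments than this PPARα peak near the end, over a far lower background.

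**Figure D1:**
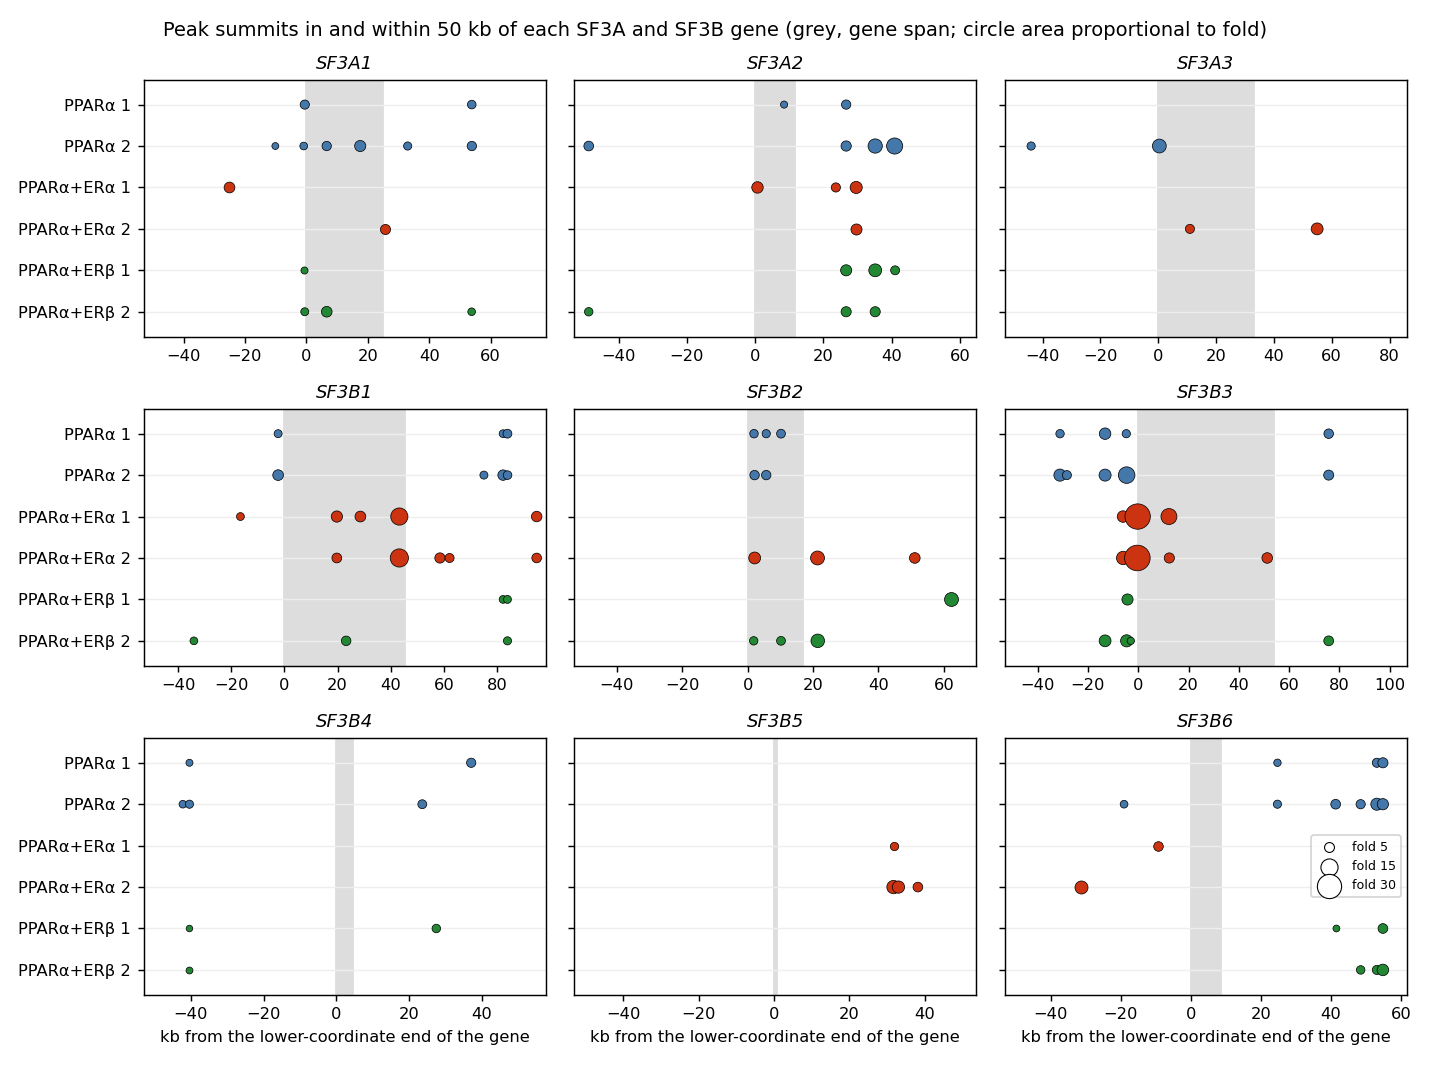
Peak summits around each of the 9 genes. The x axis gives distance in kb from the lower-coordinate end of the gene, grey marks the gene span, each row is 1 library, and circle area is proportional to the authors' fold. The largest circles are the PPARα+ERα peaks beside SF3B3 (fold 32.9 and 33.5) and in SF3B1 (15.1 and 16.9), and no other library has a peak in either region.

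SF3B2, which binds the pre-mRNA beside SF3B4, was the only member whose own span held a region with peaks in all 3 groups. The region at 66054179 to 66054843 on chromosome 11, 2162 bp downstream of the start, had fold 3.68 and 4.55 in the PPARα libraries, 7.22 in PPARα+ERα library 2 and 3.62 in PPARα+ERβ library 2. Stacks were low, 8 and 11, 14, and 8 fragments, and summits spread over 295 bp. With −log10 q of 3 or more required, 2 of its 4 libraries remained (PPARα library 2 and PPARα+ERα library 2). Another SF3B2 region, 5696 bp from the start, was occupied with PPARα only (fold 3.47 and 4.49) on a background of 28.2 and 27.8 times the genome-wide level. Downstream, in the sorting protein gene PACS1, a peak was shared by PPARα+ERα library 2 (fold 9.86) and PPARα+ERβ library 2 (9.36), at a background of 1.00 times in both. These were the 2 regions of 65 in which a PPARα+ERα peak met a peak of another group, 3.08% compared with 4.05% of all regions.

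The remaining SF3B genes had no peak close to them. SF3B4, an RNA-binding subunit, had its nearest region 19103 bp away, in the deubiquitinase gene OTUD7B and in PPARα library 2 alone. Its one recurrent region lay 40399 bp off, by the histone gene H2BC21 (chromosome 1, 149882534 to 149883020), with fold 2.51 and 3.40 with PPARα and 2.18 and 2.42 with PPARα+ERβ, on a background of 35.0 to 35.9 times the genome-wide level. SF3B5, the smallest gene at 690 bp, had peaks with PPARα+ERα only, the nearest 31025 bp away toward STX11 (fold 3.60 and 9.10, on 4 and 13 fragments). The 4 fragments in library 1 were the smallest stack of any peak described here, with −log10 q of 2.12, and SF3B5 was no longer called when −log10 q of 3 or more or equal list lengths were required. SF3B6, which lies near the branch adenosine in the assembled particle, had its nearest region 9328 bp away in FKBP1B. Only PPARα+ERα library 1 had a peak there (fold 4.74, 8 fragments). Upstream of SF3B6, 3 regions in FAM228B and PFN4 were occupied with PPARα. The one also occupied with PPARα+ERβ, at 24122326 to 24122689 on chromosome 2, had fold 5.23 and 6.46 with PPARα and 4.86 and 6.84 with PPARα+ERβ, with summits within 16 bp.

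At the ends of the SF3A genes, 1 region recurred between libraries and 3 were called in a single one. Past the far end of SF3A1, which joins U2 to other parts of the early spliceosome, a region was occupied with PPARα and with PPARα+ERβ (chromosome 22, 30330892 to 30331623), with fold 4.32 and 3.05 and fold 2.57 and 3.26. Its summits formed 2 sites: PPARα library 1 and PPARα+ERβ library 2 at 30331464 and 30331463, and the other 2 libraries at 30331123 and 30331092. With lists of equal length it had 2 of its 4 libraries, 1 of each group, and with −log10 q of 3 or more it lost PPARα+ERβ library 1, which left SF3A1 without a PPARα+ERβ region. At the start of SF3A1, 595 bp outside it and inside the neighbouring gene CCDC157, PPARα+ERα library 2 alone had a peak (fold 5.25, 7 fragments). SF3A2 had a peak 696 bp downstream of its start in PPARα+ERα library 1 alone (fold 6.72, 9 fragments). SF3A3 had one 385 bp inside its far end in PPARα library 2 alone, with fold 9.77 on 44 fragments. SF3A3 was the one member with no region in both libraries of any group, and its 4 regions had 1 library each.

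More than 3 kb from an end, outside the SF3A genes, 6 regions had peaks in more than 1 library, 5 of them around SF3A2. Between SF3A2 and OAZ1, the gene of ornithine decarboxylase antizyme, 4 libraries placed a summit on the same base, 2263509 of chromosome 19 (fold 4.41 and 5.37 with PPARα, 6.31 and 5.27 with PPARα+ERβ), on 6 to 9 fragments and a background of 1.00 times. A second region nearer OAZ1 (2266327 to 2266701) had both PPARα+ERα libraries and no other, with fold 7.49 and 6.26 and summits on the same base. Inside OAZ1 a region was occupied with PPARα+ERβ (fold 8.45 and 5.27) and also called in PPARα library 2 (10.4). In RNF215, 28976 bp above SF3A1, both PPARα libraries had a peak (fold 3.81 and 4.49) and so did PPARα+ERβ library 2 (3.0003), on backgrounds of 26.8 to 35.0 times.

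Counting genes, 7 of 9 members had a region occupied with PPARα (60.5% of all protein-coding genes did). With PPARα+ERα there were 4 (38.0%), and 6 when ERβ was added instead (46.6%). The members were SF3A1, SF3A2, SF3B1, SF3B2, SF3B3, SF3B4 and SF3B6 for PPARα, and SF3A2, SF3B1, SF3B3 and SF3B5 for PPARα+ERα. The PPARα+ERβ set was that of PPARα without SF3B2. As shares these are 77.8, 44.4 and 66.7%, on 9 genes, and 1 gene more or less moves a share by 11.1 points. The PPARα+ERα count depended on the libraries, with 8 members (72.7% of all genes) when library 1 was left out and a single peak sufficed, and 6 (68.8%) without library 2. Requiring a local background of at most 3 times the genome-wide level left 3 members for PPARα (15.6% of all genes), 4 for PPARα+ERα (30.5%) and 2 for PPARα+ERβ (14.0%). That requirement kept 3 of 19 and 7 of 32 window peaks in the PPARα libraries. In the PPARα+ERα libraries it kept 11 of 14 and 16 of 20, and in those of PPARα+ERβ 2 of 12 and 7 of 20.

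Setting PPARα+ERα beside PPARα asks where peaks differ once ERα and its agonist are present. At 4 members a region had peaks in both PPARα+ERα libraries without any PPARα peak (36.7% of all genes), and at 7 members the reverse (58.9%). SF3A2, SF3B1 and SF3B3 were counted on both sides, through different regions of the same window. Of the 65 regions, 8 (12.3%) were on the first side and 15 (23.1%) on the second, compared with 9.14% and 18.1% of all regions. All 8 regions occupied with PPARα+ERα lacked a peak in the other 4 libraries, as did 89.8% of such regions genome-wide. The first count was 8 (71.1% of all genes) without PPARα+ERα library 1 and 6 (67.1%) without library 2. The second fell to 2 (13.1%) with low-background peaks only. Comparisons with PPARα alone share the same PPARα libraries.

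For ERβ and its agonist, the corresponding comparison with PPARα gave no gained region. No member had a region called in 2 ERβ libraries and never with PPARα (10.8% of all genes). Single libraries did give some: 3 members (38.8% of all genes) without PPARα+ERβ library 1, 2 (28.2%) without PPARα+ERβ library 2 and 1 (19.2%) without PPARα library 2. The reverse held at SF3B1, SF3B2, SF3B3 and SF3B6, 4 members (25.3%), in regions described above for the first 3 and in FAM228B (fold 2.81 and 3.42) for SF3B6. That count was 7 (66.2% of all genes) without PPARα library 1 and 6 (36.7%) without PPARα library 2. It was 2 (13.8%) with lists of equal length and 0 (3.28%) with low-background peaks only. Of the 7 regions occupied with PPARα+ERβ, 6 were also occupied with PPARα, and the seventh, in OAZ1, had a peak in PPARα library 2. Among all regions, 6521 of the 10204 occupied with PPARα+ERβ were also occupied with PPARα.

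The co-transfected groups were compared directly. The 4 members SF3A2, SF3B1, SF3B3 and SF3B5 had a region with 2 PPARα+ERα peaks and no PPARα+ERβ peak (35.5%), 8 without PPARα+ERα library 1 (70.1%) and 6 without library 2 (66.2%). SF3A1, SF3A2, SF3B1, SF3B3, SF3B4 and SF3B6 had the reverse (43.0%), which fell to 2 members (10.2%) with low-background peaks only. No region of these windows was occupied in both groups (307 of 92292 regions overall were), and single libraries of the groups shared the SF3B2 and PACS1 regions described above.

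**Figure D2:**
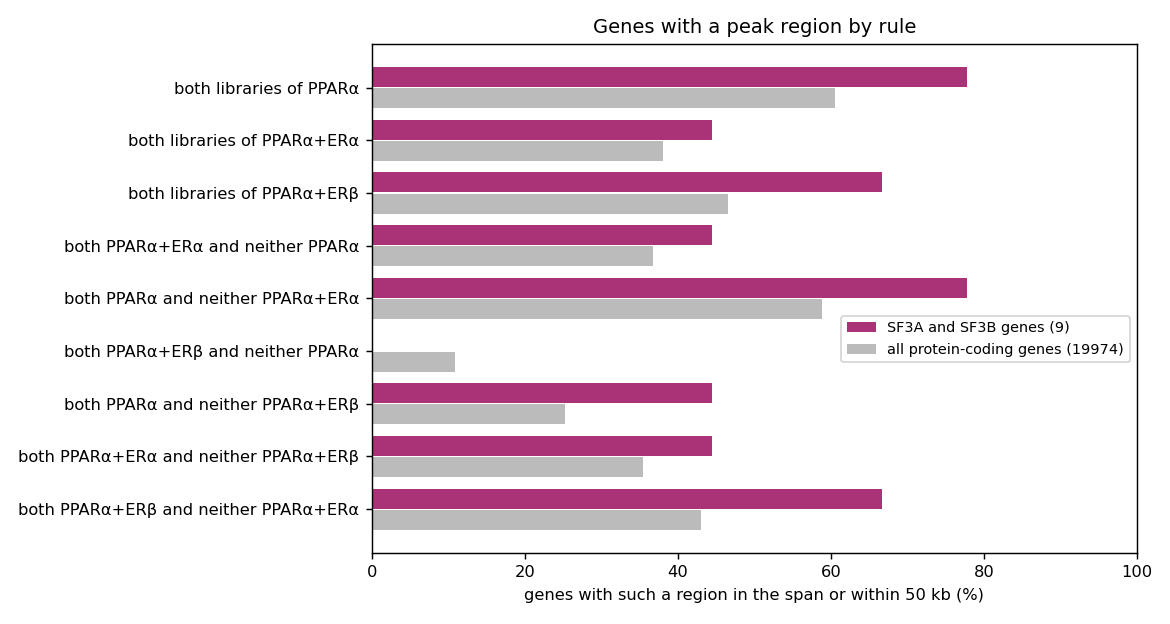
Share of genes with a peak region in the span or within 50 kb, by rule. Bars give percent of the 9 SF3A and SF3B genes (purple) and of all 19974 protein-coding genes (grey). Member shares run from 0 (both PPARα+ERβ and neither PPARα) to 77.8%, and each step of 1 gene is 11.1 points.

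Close to gene ends the numbers were small. Within 3 kb of either end, regions were occupied at SF3A1, SF3B1 and SF3B2 with PPARα (6.97% of all genes), at SF3B1 and SF3B3 with PPARα+ERα (4.61%) and at SF3A1 with PPARα+ERβ (4.98%). Against PPARα, 2 members had a region in PPARα+ERα alone of the pair (4.37%), 2 the reverse (6.61%), 0 a region in PPARα+ERβ alone (0.906%) and 1 the reverse (1.79%). Of the co-transfected groups, 2 members had a region in PPARα+ERα alone (4.09%) and 1 in PPARα+ERβ alone (4.26%). These places were known when the genes were chosen, and nothing is read from the shares. At the 50 kb bound, the outermost summit taken in was that beside HSPD1, at 49627 bp from SF3B1, and the closest one left out lay 50757 bp from SF3A2.

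By median, window peaks of the PPARα+ERα libraries stood higher in their lists than those of the other groups. The genes were chosen by the calls and folds of these same peaks, so this standing describes the chosen windows and nothing is read from it about the groups. By −log10 q, the median window peak was at percentile 67.8 and 69.7 of the PPARα+ERα lists, 33.9 and 52.5 of the PPARα lists and 49.1 and 58.1 of the PPARα+ERβ lists, where a list's own median is at 50. The SF3B3 and SF3B1 peaks were above percentile 99 in both PPARα+ERα lists, together with the SF3B3 peak inside the gene in library 1 (99.2). No window peak of the other lists reached that level, the highest being 97.9, the PFN4 peak above SF3B6 in PPARα+ERβ library 2.

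**Figure D3:**
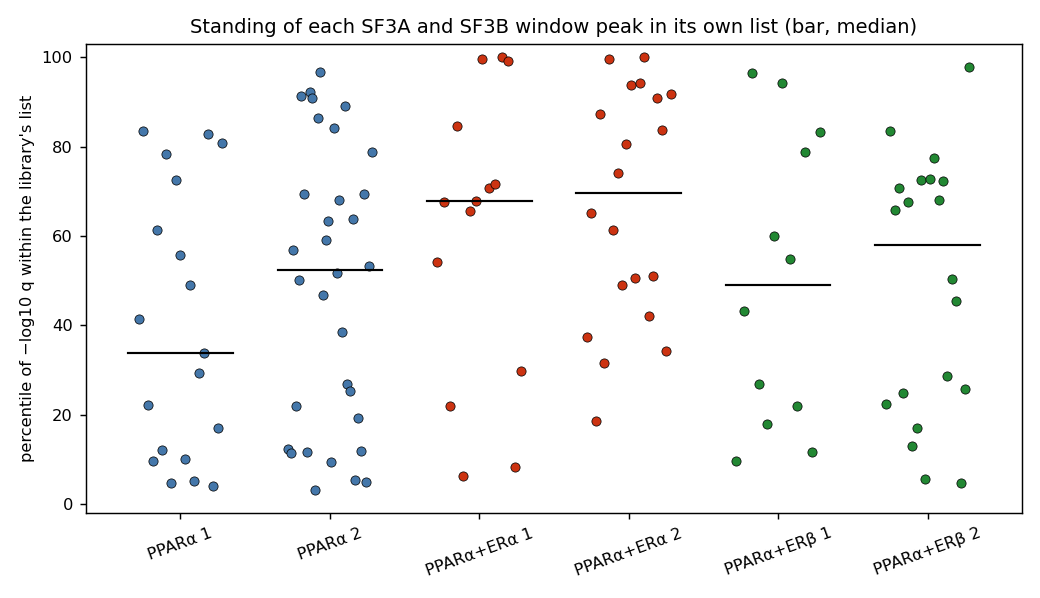
Percentile of each window peak within its own library's list by −log10 q (y axis), by library (x axis), with bars at the medians. Medians are 67.8 and 69.7 in the PPARα+ERα libraries and 33.9 to 58.1 in the others, and each library spans most of its list.

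Window peaks of the PPARα+ERα libraries also had the smallest stacks and the lowest backgrounds by median, as in the whole lists. The median window peak had 25 and 42.5 fragments in the PPARα libraries on local backgrounds of 9.82 and 10.3 times the genome-wide level. It had 11 and 13.5 fragments on 1.94 and 2.57 times in the PPARα+ERα libraries, and 28 and 21.5 fragments on 11.1 and 6.70 times in the PPARα+ERβ libraries. The windows held more peaks per Mb than the windows of all protein-coding genes together in every library. With PPARα there were 17.3 and 29.1 peaks per Mb compared with 8.96 and 14.4. With PPARα+ERα there were 12.7 and 18.2 compared with 9.44 and 10.6, and with PPARα+ERβ 10.9 and 18.2 compared with 6.93 and 9.43. The member windows cover 1.10 Mb in all, and their gene density was not matched. Of the 65 regions, 33 (50.8%) had a peak in 1 library, compared with 60.1% of all regions, and none had peaks in all 6.

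**Figure D4:**
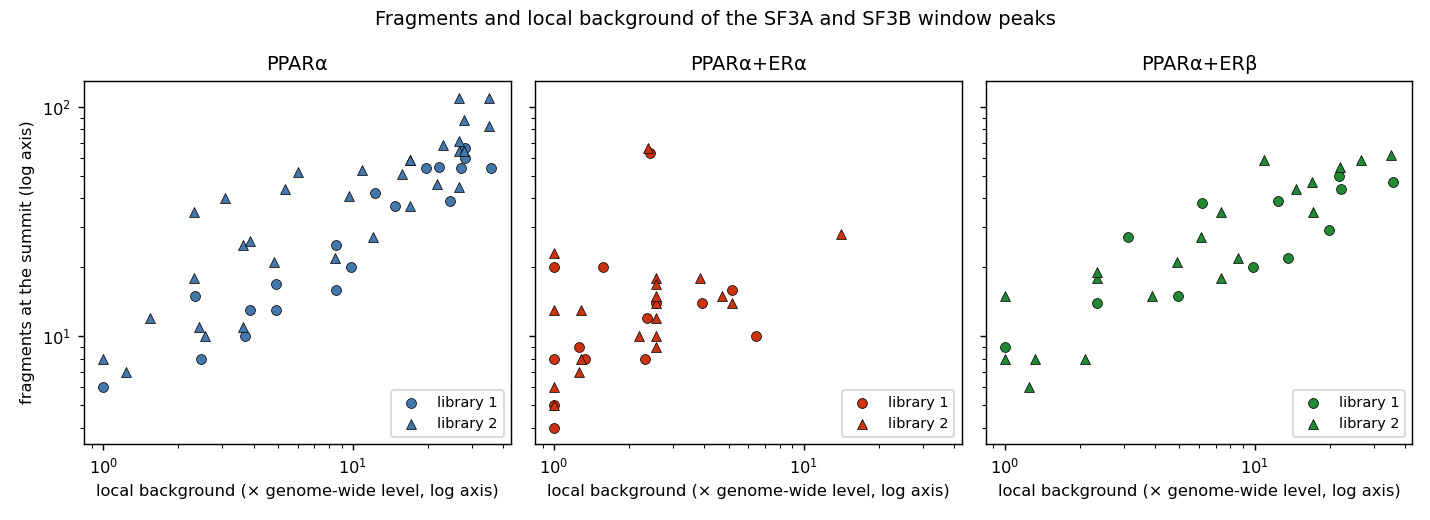
Fragments at the summit (y axis, log scale) and local background relative to the genome-wide level (x axis, log scale) for each window peak, by group, with circles for library 1 and triangles for library 2. The PPARα+ERα pair with 63 and 66 fragments at about 2.4 times background is the SF3B3 and COG4 peak, while stacks above 60 in the other groups stand on higher backgrounds.

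By the sum of absolute log2 fold differences over the libraries with a peak, the region most like that of SF3B3 was at NOP56, a ribosomal RNA processing factor (sum 0.96, fold 20.1 and 28.2), then the one shared by PSME3IP1 and RSPRY1 (1.67). These came from 720 regions within 3 kb of a gene end with peaks in both PPARα+ERα libraries only. The SF3B1 peak near the start was closest to the region shared by MITD1 and MRPL30 (0.10; fold 15.4 and 17.8) and to GHDC (0.13; 15.8 and 16.2). Likeness over 2 libraries says only that folds were similar. The SF3A1 region was closest to TBC1D9 (0.56), ELK3 (0.67) and FIGLA (0.68) over 4 libraries, and the SF3B2 region, with 7 others of its pattern, to PNMA8C (1.49), ZNF208 (1.95) and UTS2R (2.36).

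Of 58 other spliceosome genes, 41 had a PPARα-occupied region in the same window, 28 had one for PPARα+ERα and 31 for PPARα+ERβ, shares of 70.7, 48.3 and 53.4%. The shares of all protein-coding genes were 60.5, 38.0 and 46.6%. With 2 PPARα+ERα peaks and no PPARα peak there were 26 (44.8%, compared with 36.7% of all genes). The reverse held for 37 (63.8%, compared with 58.9%). Within 3 kb of an end, 5 had a region for PPARα, 5 for PPARα+ERα and 2 for PPARα+ERβ. These are 8.62, 8.62 and 3.45%, compared with 6.97, 4.61 and 4.98% of all genes. SNRPA1, another U2 protein, had PPARα+ERα peaks of fold 6.00 and 8.66. U2AF2, which binds the polypyrimidine tract and helps recruit U2, had fold 7.19 and 4.23 in the same libraries. CRNKL1 (fold 6.90 and 8.15) and RBM17 (7.91 and 8.46), the latter an alternative splicing factor, also had PPARα+ERα regions without a peak in any other library. RBM17 had a second region, with PPARα (7.94 and 5.64) and PPARα+ERβ library 1 (8.89). PRPF19, a ubiquitin ligase of the spliceosome, and SNRPF, a core Sm protein, had regions occupied with PPARα and PPARα+ERβ. The PRPF19 folds were 6.94 and 11.005 with PPARα, and 5.20 and 5.64 with PPARα+ERβ. The SNRPF folds were 5.06 and 6.23, and 6.34 and 6.78. Within the PPARα+ERα lists, the folds of SNRPA1, U2AF2, CRNKL1 and RBM17 were below those of the peaks beside SF3B3 and near the SF3B1 start.

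The upstream stretches of most members held the ETS core marked in the sequences above. Promoter entries were found for 8 of the 9 genes, all but SF3B3. The ETS core CCGGAAG, searched on both strands in the 250 bases upstream, was present in 6 of 8 (SF3A1, SF3A2, SF3A3, SF3B2, SF3B4 and SF3B6), and in 8.52% of 34961 promoter entries of that length. SF3B6 had 3 copies and SF3B2 had 2, while SF3B1, SF3B5 and the COG4 stretch had none. The promoter entries also cover noncoding genes and were not matched to the members, so nothing is read from the difference in shares. The SP1 box GGGCGG was present in 6 of 8 (42.7% of all entries) and the CCAAT box CCAAT in SF3B5 alone (32.0%) and in the COG4 stretch. The NRF1 motif GCGCATGC was present in SF3A2 (2.64%). The hexamer AGGTCA, to which nuclear receptors bind, was in none of 8 and not in the COG4 stretch (12.0%), nor was the PPAR response element AGGTCANAGGTCA (0.0172%) or the estrogen response element GGTCANNNTGACC (0.0400%). The first contains AGGTCA 2 times, and the second overlaps its last 5 bases. Only exact letters were searched. Of all entries, 6 held the PPAR response element and 14 the estrogen response element, so their absence from these few stretches carries no information. AAGATGGCG (YY1, 0.655%) and TGACGTCA (cAMP response element, 1.65%) were in none of the 8. GC content of the members' stretches ran from 58.0 to 73.2% with a median of 62.0%, where all entries had a median of 58.4%, and the COG4 stretch had 41.6%. No peak of any library overlapped the 8 members' stretches, the nearest being 157 bp from that of SF3A1. SF3B3, which lies beside the strongest PPARα+ERα peak, had no entry, so no upstream stretch was defined for it. If SF3B3 starts at the end next to COG4, most of its upstream stretch is the COG4 stretch searched here, which that peak overlapped. Sequence under the other peaks was not used here.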

How the data were processed

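Data were 6 peak lists from 6 of 7 samples. Per the submitters' processing notes, MACS2 2.2.7.1 and Bowtie 1.0.1 were named with hg38 and GRCh38.p13, beside DiffBind 2.16, HOMER 4.11, Trim Galore 0.6.4 and ChIPseeker 1.18.0. The role of each and the control are not given in the sources used here. In the deposited lists the fold is a ratio of summit to local background, −log10 p and −log10 q belong to the summit (q adjusted within the list), and the score is 10 times −log10 q without its decimals, up to rounding. The authors called peaks per library.

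The deposited fold and −log10 p gave the fragments at a summit and the local background, with the p taken as a Poisson tail with 1 added to both terms of the fold. A whole number returned −log10 p within 0.001 for every peak, and for up to 0.258% of a list 2 numbers did, of which the closer was kept. The genome-wide level of a list was taken as the 0.001 quantile of its own peaks' local backgrounds. It was not measured from reads, and 1.00 times is therefore close to the lowest value possible here. Fewer fragments mean less precision, and the depth is an estimate, as the spacing takes the shortest peak as the fragment length.

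Peaks of chromosomes 1 to 22 and X overlapping by 1 bp were merged. Gene spans, starts and upstream sequences came from RefSeq tables of GRCh38.p14, whose chromosome coordinates are those of hg38. SF3B3 has no strand there. The members and gene lists, and the rules for named genes (all members, neighbours of their described regions, up to 4 other spliceosome genes per group by the lower percentile of −log10 q, and 3 most alike genes per region near an end), were chosen with earlier results of these data known. All 58 other spliceosome symbols matched. No test was run: 2 libraries stand against 2. Alternatives were other windows, a stricter q, joining by summits, equal list lengths, low background and leaving out each library. Steps were tested on simulated data. Peak lists hold no expression, so the cell line was not checked against markers. SciPy 1.17.1 and NumPy 2.4.6 did the arithmetic, in Python 3.11.15 with Matplotlib 3.10.9 and pandas 2.3.3.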

Additional observations from a re-analysis of the deposited data

How the results depend on the processing

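Member counts were set at 9 results under 14 alternatives, and 89 of 126 values stayed within 1.5 times the reported count. Joining peaks by summits within 200 bp, requiring −log10 q of 3 or more and a window of 100 kb left every one of the 9 counts within that bound, though SF3B5 left the PPARα+ERα members at that q and SF3A1 left the PPARα+ERβ members at that q and when joined by summits. Narrower windows lowered the counts. In the order of regions occupied with PPARα, PPARα+ERα and PPARα+ERβ, the counts were 1, 2 and 0 for the gene span only (24.8, 15.0 and 18.2% of all genes), 4, 2 and 2 for 10 kb (34.1, 21.0 and 25.3%), and 3, 2 and 1 within 3 kb of an end (6.97, 4.61 and 4.98%). Members with 2 PPARα+ERα peaks in a region free of PPARα peaks were 2 under each of these, as were those with neither PPARα+ERβ library. The reverse counts were 1, 4 and 2 for PPARα against PPARα+ERα, and 0, 2 and 1 for PPARα+ERβ against PPARα+ERα. PPARα against PPARα+ERβ gave 1, 2 and 1. Equal list lengths, of 17457 peaks, gave 2 for PPARα against PPARα+ERβ. Low-background peaks gave 3 members with PPARα and 2 with PPARα+ERβ, 2 for PPARα and 2 for PPARα+ERβ against PPARα+ERα, and 0 for PPARα against PPARα+ERβ, and the PPARα+ERα counts stayed at 4. Leaving out each library in turn, the PPARα+ERα counts (occupied, and against either other group) ranged from 4 to 8, members with a PPARα+ERβ region and no PPARα peak from 0 to 3, PPARα against PPARα+ERβ from 4 to 7, PPARα occupied and PPARα against PPARα+ERα from 7 to 8, and PPARα+ERβ occupied and against PPARα+ERα from 6 to 7. When a library was left out, the remaining one of its group decided alone, so higher counts follow from the rule. The cause of the other shifts was not tested. The SF3B3 and SF3B1 start peaks were called in 2 libraries under every peak filter, a check added after seeing the data, while at equal lengths the SF3B2 region fell to 1 of 4 libraries and the SF3A1 region to 2 of 4, and the SF3A1 region and the SF3B1 region past the gene's end fell to 0 with low-background peaks. No paired analysis was possible because the labels give no replicate numbers shared between groups. The depth of the PPARα+ERα libraries was the lowest, so a missing peak there is not shown to be absent binding. Nor is one in the PPARα or PPARα+ERβ libraries, whose called peaks stood on higher local backgrounds, as read coverage was not examined.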
